A study of Mus musculus with 15 samples.

Results

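Osteopontin (Spp1), periostin (Postn) and 8 further genes of the matricellular system, Tnc, Fn1, Thbs1, Thbs2, Sparc, Col18a1, Itgav and Itga5, were followed through sorted cells of mouse skin tumours. The members were picked by symbol, with earlier results of these data in view, and all 10 were found among the 37583 genes counted. Spp1 and Postn were on the list because they stood apart between CD34+ and CD34- cells, so that comparison is described here for the members and is not tested. The tumours came from C57BL/6 mice that had received the carcinogen DMBA and the promoter TPA for more than 24 weeks. Mice were either wild type (WT) or SIRT6 KO, a conditional knockout (K14-cre; SIRT6 flox/flox) in which the keratin 14 promoter drives Cre, so that deletion is directed to keratinocytes of the basal layer and their descendants. Every group shares the strain and the DMBA/TPA treatment, and no untreated skin was analysed here. Tumour cells were sorted on CD34 and integrin alpha 6 (a6) into CD34+ a6-high, CD34- a6-high and CD34- a6-low cells. Each population has 2 KO and 3 WT libraries, 15 in all.

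Matricellular proteins are secreted into the matrix but act mainly as signals: they bind integrins, growth factors and proteases and tune how firmly a cell holds on. Osteopontin carries an RGD motif read by integrins such as alpha v beta 3 and also binds CD44; periostin binds alpha v integrins and ties collagen to tenascin-C; thrombospondins bind CD36 and CD47. In skin, periostin and tenascin-C are known mainly as products of the dermis that rise in wounds and tumours, and osteopontin is a known target of tumour promotion by TPA.

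The 250 bases before the RefSeq start sites of Spp1 and Postn are shown because these are the genes with opposite levels between CD34+ and CD34- cells. They are from the build GRCm38.p6, not the mm9 build of the count tables, and both lie on the plus strand: chr5:104434861-104435110 for Spp1 and chr3:54360857-54361106 for Postn. Capitals mark every match, on either strand, to 5 searched motifs, which are the TATA box spelled TATAAA, the CCAAT box spelled CCAAT, the AP-1 motif spelled TGANTCA, the RUNX motif spelled ACCACA and the TEAD motif spelled GGAATG.
Spp1: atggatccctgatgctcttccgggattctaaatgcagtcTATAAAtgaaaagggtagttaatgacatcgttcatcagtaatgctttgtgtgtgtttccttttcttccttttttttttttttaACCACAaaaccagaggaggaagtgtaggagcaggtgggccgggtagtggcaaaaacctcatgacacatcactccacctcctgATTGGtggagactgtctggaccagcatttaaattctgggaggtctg
Postn: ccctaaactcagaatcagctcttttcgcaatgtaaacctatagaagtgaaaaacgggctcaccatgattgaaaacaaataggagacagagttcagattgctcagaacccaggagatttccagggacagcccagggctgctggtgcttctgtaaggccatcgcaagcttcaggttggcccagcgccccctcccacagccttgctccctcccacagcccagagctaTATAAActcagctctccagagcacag
In the Spp1 window the TATA letters begin at position -211, the RUNX letters at -128 and the CCAAT box, on the opposite strand, at -46. In the Postn window the single match is the TATA box at -26. Of 32851 RefSeq windows of 300 bases, which add 50 bases after the start, 13.6% hold the TATA letters, 37.4% the CCAAT box, 16.8% the RUNX letters and 14.7% the TEAD letters. The AP-1 letters are in 7.8% of all windows. Of the 8 members' windows found (Fn1 and Thbs1 were not matched), 4 hold the TATA letters, 2 the CCAAT box, 3 the RUNX letters, 1 the TEAD letters and 0 the AP-1 letters. The Tnc window, which holds TATA letters, lies 26211 bases from the annotated transcript start used to choose windows. The other windows lie within 241 bases of theirs. A match is a description of the letters and not evidence of a bound site.

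Libraries held 10080902 to 28622043 gene counts, and levels are given as CPM, read counts scaled for composition and to a library total of 1000000. Cd34 was at 163 to 214 CPM in the CD34+ libraries and at 4.51 to 40.3 CPM in the other 10. Itga6, the gene of the sorted a6, went against the label in 2 a6-low libraries: KO replicate 2 (445 CPM) and WT replicate 1 (471 CPM) were at the level of the a6-high libraries (263 to 576 CPM), while the other 3 a6-low libraries were at 67.9, 94.1 and 174 CPM. Keratinocyte markers summed to 46980 CPM or more in every library. In CD34+ cells the sum was 46980 and 58241 CPM in KO against 71335 to 82971 CPM in WT. In CD34- a6-high cells it was 64083 and 75130 against 90039 to 100770 CPM, and in a6-low cells 63076 and 73387 against 78705 to 81048 CPM. Of the 10 markers, 6 were lower and 4 higher in KO in counts summed over the populations. The part of the lower KO sums in KO against WT was not tested. The 3 libraries of KO replicate 2 alone carried the Y-linked gene Ddx3y, at 51.9 to 74.9 CPM against 0.222 CPM or less in the other 12. The part of this difference in KO against WT was not tested. Sirt6 itself was at 5.07 to 8.53 CPM in libraries labelled KO and 4.45 to 10.5 CPM in WT libraries; the labels do not say which exons the flox alleles remove, so whole-gene counts do not check the genotype. Some results that rest on these 2 a6-low libraries or on KO replicate 2 are also given without them. Comparisons of CD34+ with a6-low cells are given with all libraries or with single libraries left out. The Spp1 differences between KO and WT in the a6-high populations are not given without KO replicate 2.

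Spp1, the secreted integrin and CD44 ligand, was highest in CD34+ cells, intermediate in a6-low cells and lowest in CD34- a6-high cells. The CD34+ libraries held 20.8 and 8.64 CPM in KO replicates 1 and 2 and 29.5, 17.1 and 132 CPM in WT replicates 1, 2 and 3. The CD34- a6-high libraries held 0.834 and 0.350 CPM in KO and 6.99, 0.860 and 2.91 CPM in WT, from 8 to 97 reads each. The a6-low libraries held 11.2 and 5.10 CPM in KO and 5.55, 4.44 and 9.55 CPM in WT. Every CD34+ library was above every CD34- a6-high library, a separation seen in 4.20% of the 14652 genes tested and used in choosing this gene. WT replicate 3 of the CD34+ cells stood far above the other 4 CD34+ libraries. In a bulk library, fewer cells making a transcript and less transcript per cell cannot be told apart.

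**Figure D1:**
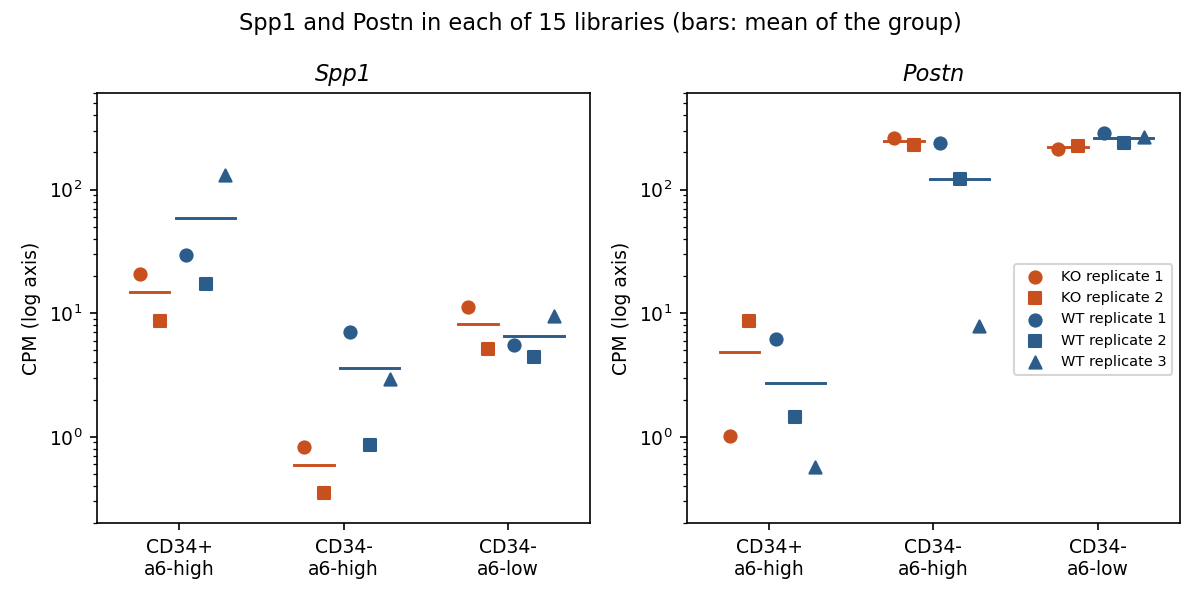
Spp1 and Postn in each library (CPM, log axis) by sorted population; colours give the genotype, symbols the replicate and bars the group mean. Spp1 is highest in CD34+ cells; Postn is between 121 and 285 CPM in 9 of the 10 CD34- libraries and at 8.68 CPM or less in the CD34+ libraries, with WT replicate 3 of the CD34- a6-high cells at 7.90 CPM.

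The fitted Spp1 level in CD34+ cells was 20.2-fold that of CD34- a6-high cells (log2 difference 4.33) and 4.04-fold that of a6-low cells (2.01). By replicate number, the ratio of CD34+ to CD34- a6-high CPM was 25.0 and 24.7 in the KO pairs and 4.22, 19.9 and 45.1 in the WT pairs, so the order held in 5 of 5 pairs although its size differed. Leaving out WT replicate 3 of the CD34+ cells gave log2 differences of 3.66 and 1.34 for the same comparisons. Between the CD34- populations Spp1 was lower in a6-high than in a6-low cells by 4.99-fold. The log2 difference was -2.32 ± 0.68 SE (edgeR quasi-likelihood test, adjusted p = 0.262) and did not pass the threshold of 0.05. The CD34- a6-high libraries serve in both comparisons and their low Spp1 took part in its choice, so the comparisons are not independent. Spp1 was lower in a6-high cells in 4 of 5 same-numbered pairs, WT replicate 1 being the exception. DESeq2 gave the same difference with an adjusted p of 0.0137, and adjusted p over the 18 alternatives ran from 3.92e-06 to 0.721.

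Markers of cells known to make Spp1 were read beside it. The 15 macrophage and dendritic cell markers summed to 22.2 to 40.2 CPM in CD34+ cells, 16.9 to 23.9 CPM in CD34- a6-high cells and 23.0 to 71.4 CPM in a6-low cells; Cd68, which is lysosomal and not restricted to macrophages, led the sum. The defining marker Adgre1 stayed at 0.545 CPM or less in every library and 7 of the 15 markers stayed under 3 CPM, while in a6-low cells C1qa reached 7.32, C1qb 7.09, C1qc 7.65, Fcer1g 4.58 and Tyrobp 3.66 CPM. For the 12 endothelial markers the sum was 19.3 to 82.6 CPM in CD34+ cells against 5.56 to 14.4 CPM in CD34- a6-high cells, and the library at 82.6 CPM (with Plvap at 39.2 CPM) was WT replicate 3, the one with the most Spp1. All 9 endothelial markers that could be tested were higher in CD34+ than in CD34- a6-high cells (median log2 difference 1.74). With edgeR 0 passed, against 1.17% of all genes, and 6 had an unadjusted p under 0.05, against 15.1%. DESeq2 called 5 of them, and it called more genes in all than edgeR did. Against a6-low cells, 5 of the 11 tested macrophage markers were lower in CD34+ cells by edgeR (Lyz2, C1qa, C1qb, C1qc and Tyrobp), where 4.93% of all genes passed in either direction. Lyz2 reached 8.11 CPM in a6-low and 4.57 CPM in CD34+ cells at most. Lyz2 lost its call without KO replicate 1 of the CD34+ cells, and each of the other 4 markers without any 1 of 5 to 7 of the 10 libraries. The part of these cells in the Spp1 levels was not tested.

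Postn, the periostin gene, ran the other way. All 5 a6-low libraries held it at 215 and 227 CPM in KO and 285, 238 and 268 CPM in WT. The CD34- a6-high libraries held 262 and 230 CPM in KO but 239, 121 and 7.90 CPM in WT. The CD34+ libraries held 1.01 and 8.68 CPM in KO and 6.17, 1.45 and 0.574 CPM in WT. The a6-low and CD34+ libraries did not overlap, as in 6.91% of the genes tested, and the CD34- a6-high libraries overlapped with CD34+ through WT replicate 3 alone. That library's Cd34 was at 20.9 CPM, within the range of the CD34- libraries, and the cause of its low Postn was not tested.

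The fitted Postn level in CD34+ cells was 46.6-fold below that in CD34- a6-high cells (log2 difference -5.54) and 64.8-fold below that in a6-low cells (-6.02). Same-numbered pairs gave CD34- a6-high over CD34+ ratios of 260 and 26.4 in KO and 38.7, 83.2 and 13.8 in WT. Leaving out KO replicate 2 from the CD34+ cells, the library with the most Postn among them, gave -6.67. Between CD34- a6-high and a6-low cells Postn differed by -0.47 ± 0.73 SE (edgeR, adjusted p = 0.877), with a6-high higher in 2 of 5 pairs; no member separated these populations fully, against 1.77% of genes. Markers of fibroblasts, the usual source of periostin, were read beside it: Col1a1, Col1a2, Col3a1 and Dcn were at or below 1.91 CPM in every library, Pdgfra at or below 0.373 CPM, and 14 of the 15 fibroblast markers stayed under 3 CPM throughout. The other one, Fbln1, was at 70.5 to 164 CPM in all libraries and makes up nearly the whole fibroblast sum of 71.3 to 165 CPM. The 7 fibroblast markers that could be tested were all lower in CD34+ than in CD34- a6-high cells (median log2 difference -0.80 against -0.02 over all genes) and all lower than in a6-low cells (-2.52 against -0.02). With edgeR 0 of 7 passed in either comparison (0 by DESeq2), with 0 at an unadjusted p under 0.05 in the first, against 15.1% of genes, and 3 in the second, against 21.6%. The part of such cells in the Postn levels was not tested.

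Tnc and Fn1 encode the large adhesive glycoproteins tenascin-C and fibronectin. Tnc was at 32.2 to 52.8 CPM in CD34- a6-high cells and 16.8 to 56.1 CPM in CD34+ cells, whose fitted levels differed by -0.16 on the log2 scale. In a6-low cells it differed by library: 2.18 CPM in KO replicate 1, 8.32 in WT replicate 2 and 13.7 in WT replicate 3, but 68.6 in KO replicate 2 and 53.9 in WT replicate 1. The higher pair are the libraries whose Itga6 matched a6-high cells. Fn1 was barely read: 11 of the 15 libraries had 18 reads or fewer, with 0 reads in WT replicate 1 of the CD34+ cells. The highest values were 7.27 CPM (166 reads) and 2.93 CPM, both KO replicate 2, followed by 2.69 CPM in WT replicate 2 of the CD34+ cells.

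**Figure D2:**
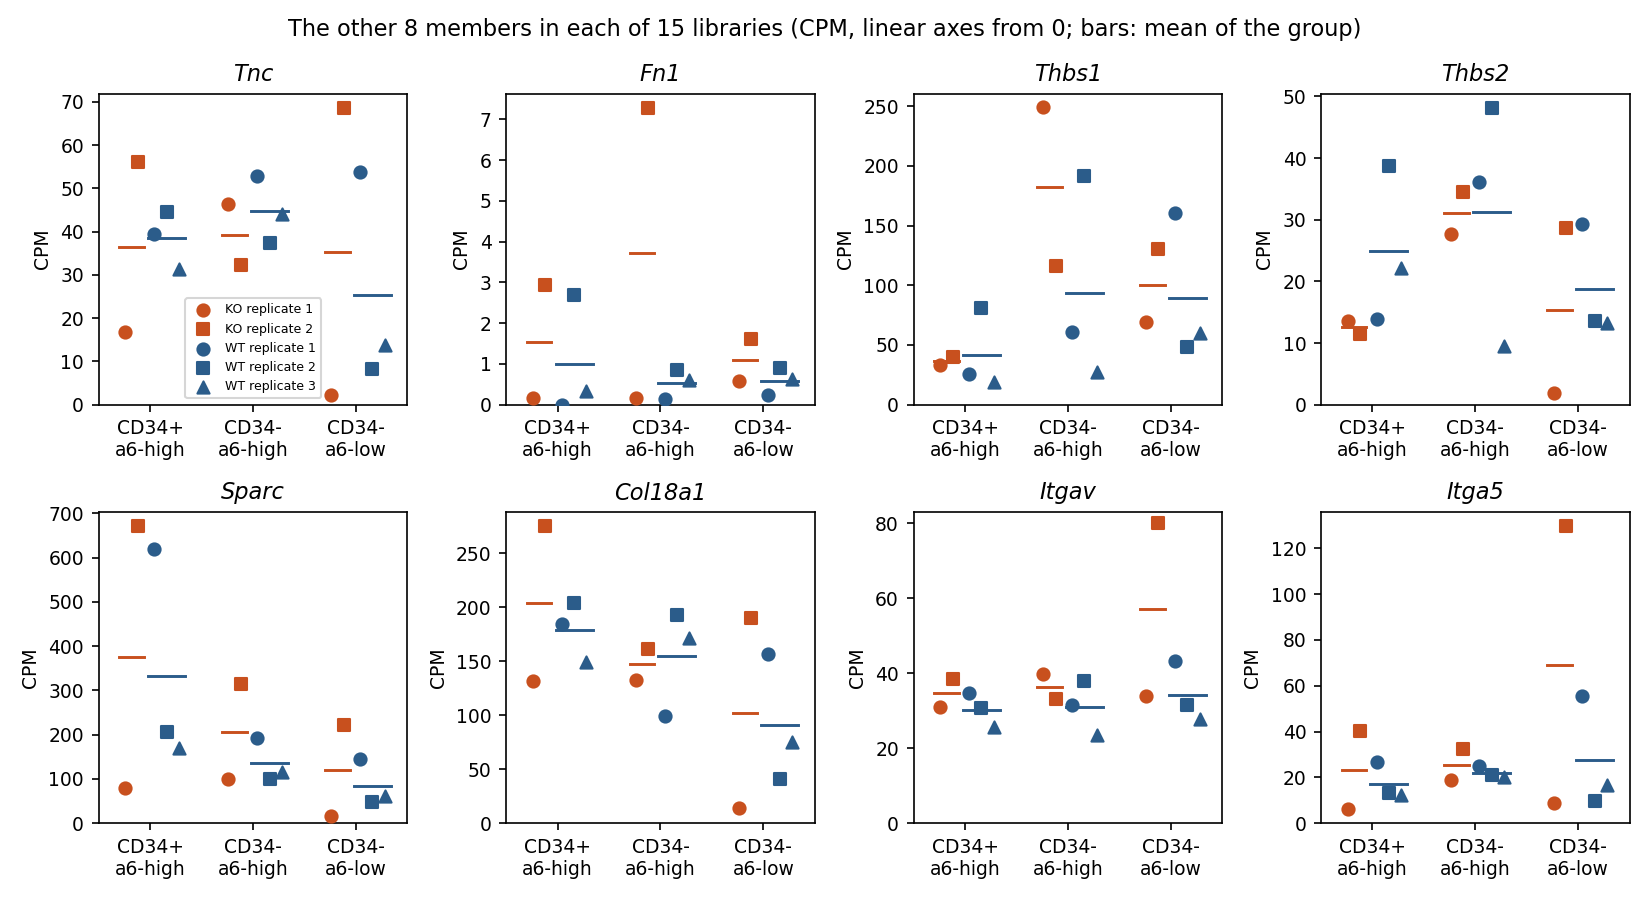
The other 8 members in each library (CPM, linear axes from 0) by sorted population; colours give the genotype, symbols the replicate and bars the group mean. In a6-low cells Tnc, Thbs2, Sparc, Col18a1 and Itga5 are each highest in KO replicate 2 and WT replicate 1; Fn1 stays at 7.27 CPM or less.

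The thrombospondins Thbs1 and Thbs2 encode trimeric glycoproteins that inhibit angiogenesis, and Thbs1 also activates latent TGF-beta. Thbs1 held 249 and 116 CPM (KO) and 61.1, 191 and 27.1 CPM (WT) in CD34- a6-high cells, against 33.2 and 40.0 CPM (KO) and 25.8, 80.6 and 18.9 CPM (WT) in CD34+ cells. The CD34+ library was the lower in 5 of 5 same-numbered pairs, with a fitted difference of 3.34-fold, though the ranges overlapped. In a6-low cells Thbs1 was at 48.5 to 160 CPM. Thbs2 was at 9.51 to 48.2 CPM in CD34- a6-high, 11.5 to 38.7 CPM in CD34+ and 1.96 to 29.3 CPM in a6-low cells. Both thrombospondins, like Postn, had their lowest CD34- a6-high value in WT replicate 3.

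Sparc, which encodes the collagen-binding counter-adhesive protein osteonectin, had the highest level per length of the 10 members. It was at 78.3 and 670 CPM (KO) and 620, 206 and 170 CPM (WT) in CD34+ cells, at 99.1 and 314 CPM (KO) and 193, 100.3 and 116 CPM (WT) in CD34- a6-high cells, and at 17.2 and 222 CPM (KO) and 144, 48.4 and 60.4 CPM (WT) in a6-low cells. Sparc was highest in CD34+, intermediate in CD34- a6-high and lowest in a6-low cells in every same-numbered set except KO replicate 1, where the CD34+ library was below the CD34- a6-high one. The fitted CD34+ level was 2.10-fold that of CD34- a6-high cells and 3.51-fold that of a6-low cells. Without KO replicate 2 of the CD34+ cells the first log2 difference was -0.05 in place of 1.07. That fit kept the same-numbered CD34- a6-high library, at 314 CPM, so it breaks a pair. By pairs, the CD34+ library was the higher in 4 of 5.

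Col18a1 encodes the basement membrane collagen XVIII, from which endostatin is cleaved. It was at 132 to 275 CPM in CD34+ cells and 99.6 to 193 CPM in CD34- a6-high cells. In a6-low cells it was at 13.9, 40.8 and 75.6 CPM in KO replicate 1, WT replicate 2 and WT replicate 3, and at 190 and 157 CPM in KO replicate 2 and WT replicate 1. Across all 15 libraries, Pearson's r of log2(CPM + 1) was 0.912 between Tnc and Col18a1, 0.825 between Sparc and Col18a1 and 0.793 between Tnc and Sparc. It was -0.678 between Spp1 and Postn and 0.694 between Postn and Thbs1. These are descriptions over libraries that share replicates, populations and depth, and the low a6-low libraries weigh in each.

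**Figure D3:**
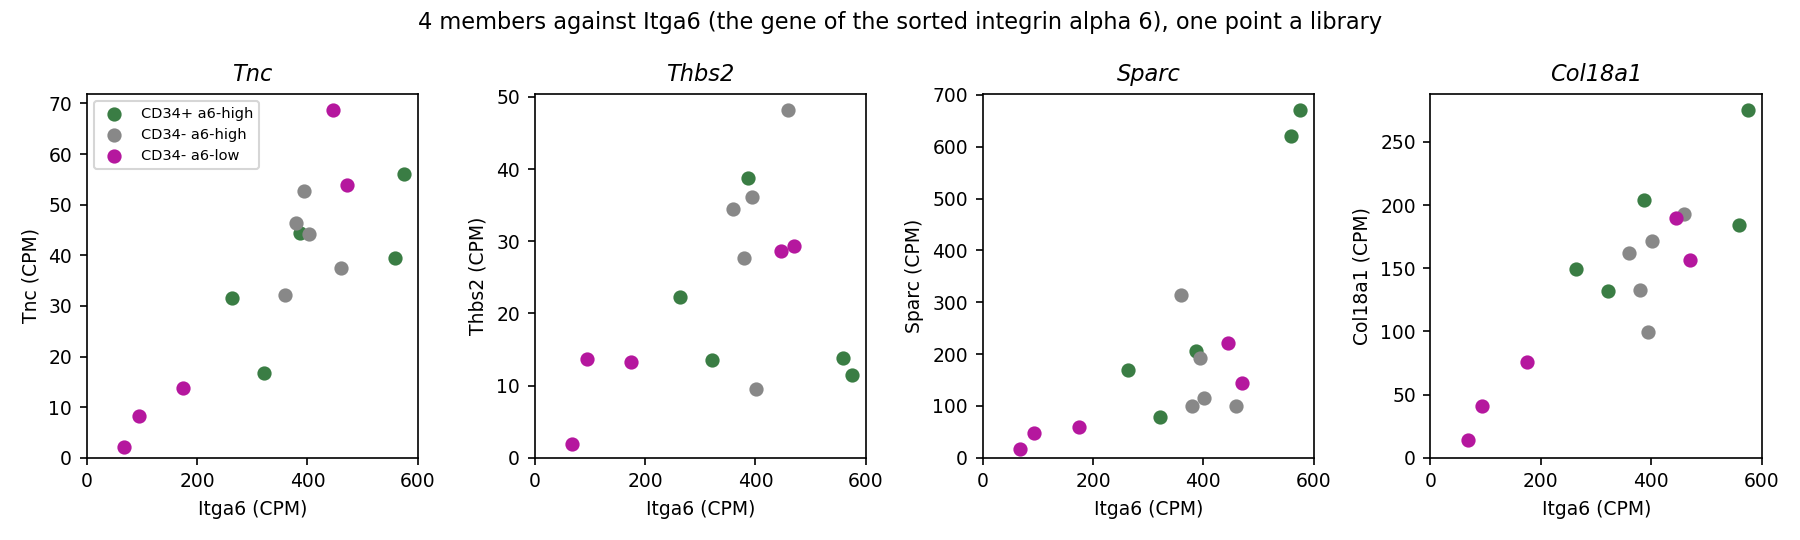
Tnc, Thbs2, Sparc and Col18a1 (CPM, vertical) against Itga6 (CPM, horizontal), one point a library, coloured by sorted population. The 3 a6-low libraries with Itga6 at 67.9 to 174 CPM hold the lowest Tnc, Sparc and Col18a1 of all 15, and the other 2 a6-low libraries lie among the a6-high ones except for Tnc, where KO replicate 2 is the highest of all 15 at 68.6 CPM.

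Among the receptors, Itgav encodes alpha v, the RGD receptor chain shared by osteopontin, periostin and tenascin-C, and Itga5 the fibronectin receptor chain alpha 5. Itgav had the narrowest range of the members, highest over lowest library: 25.6 to 38.4 CPM in CD34+ cells, 23.4 to 39.8 CPM in CD34- a6-high cells and 27.7 to 43.3 CPM in 4 a6-low libraries, with 80.2 CPM in KO replicate 2. Itga5 was at 6.26 to 40.2 CPM in CD34+ cells and 18.7 to 32.5 CPM in CD34- a6-high cells. In a6-low cells it was at 8.65, 9.76 and 16.7 CPM in the 3 libraries of low Itga6, at 55.7 CPM in WT replicate 1 and at 130 CPM in KO replicate 2. The shared beta chain Itgb1 was at 307 to 669 CPM in CD34+ cells and 27.2 to 564 CPM in a6-low cells.

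Per kilobase of exon, from a GENCODE annotation of another build than the counts, the mean over 15 libraries ran from Sparc (53.8 ± 51.5 CPM per kb, SD) through Col18a1 (20.7 ± 9.53), Postn (16.2 ± 13.9), Thbs1 (14.4 ± 11.3) and Spp1 (10.3 ± 19.8) to Itga5 (5.89 ± 6.24), Tnc (4.70 ± 2.47), Itgav (3.36 ± 1.24), Thbs2 (3.26 ± 1.87) and Fn1 (0.109 ± 0.161). Neighbours in that order differed by less than the larger of their SDs, except that Fn1 was further below Thbs2. The order changed with the population: Postn was the highest of 10 in a6-low cells (28.3 ± 3.36 CPM per kb, n = 5) and the ninth in CD34+ cells (0.411 ± 0.418). Spp1 was the third in CD34+ cells (25.2 ± 30.9) and the ninth in CD34- a6-high cells (1.45 ± 1.67).

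The comparison of CD34- a6-high with a6-low cells was run for all members. For Spp1 and Postn it is not free of their choice, since the CD34- a6-high libraries also entered the comparison that put them on the list. With edgeR, 0 of 10 passed an adjusted p of 0.05, where 0.00683% of the 14652 genes did (1 gene), and 1 member, Spp1, had an unadjusted p under 0.05 against 11.1% of genes. DESeq2 called 1 member, again Spp1. Log2 differences of the other 9 ran from -0.88 (Itga5) to 0.88 (Thbs2), with edgeR adjusted p of 0.595 to 0.877, and the median over the members was 0.47 against -0.02 over all genes. Without the 2 a6-low libraries whose Itga6 goes against their label, a setting chosen after the data were seen, Tnc (log2 difference 3.09, adjusted p = 0.00887), Col18a1 (2.41, 0.00902) and Thbs2 (2.60, 0.0346) passed as higher in a6-high cells, 342 genes passed in all, and Itga5 turned from -0.88 to 1.14. The 2 libraries left out held the highest a6-low values of Tnc, Col18a1, Thbs2 and Itga5. Leaving them out lowers the a6-low level of these genes, so the calls describe that choice and do not test the direction. It also leaves 1 KO library in the a6-low group. Spp1 stood at -2.61 in that setting.

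**Figure D4:**
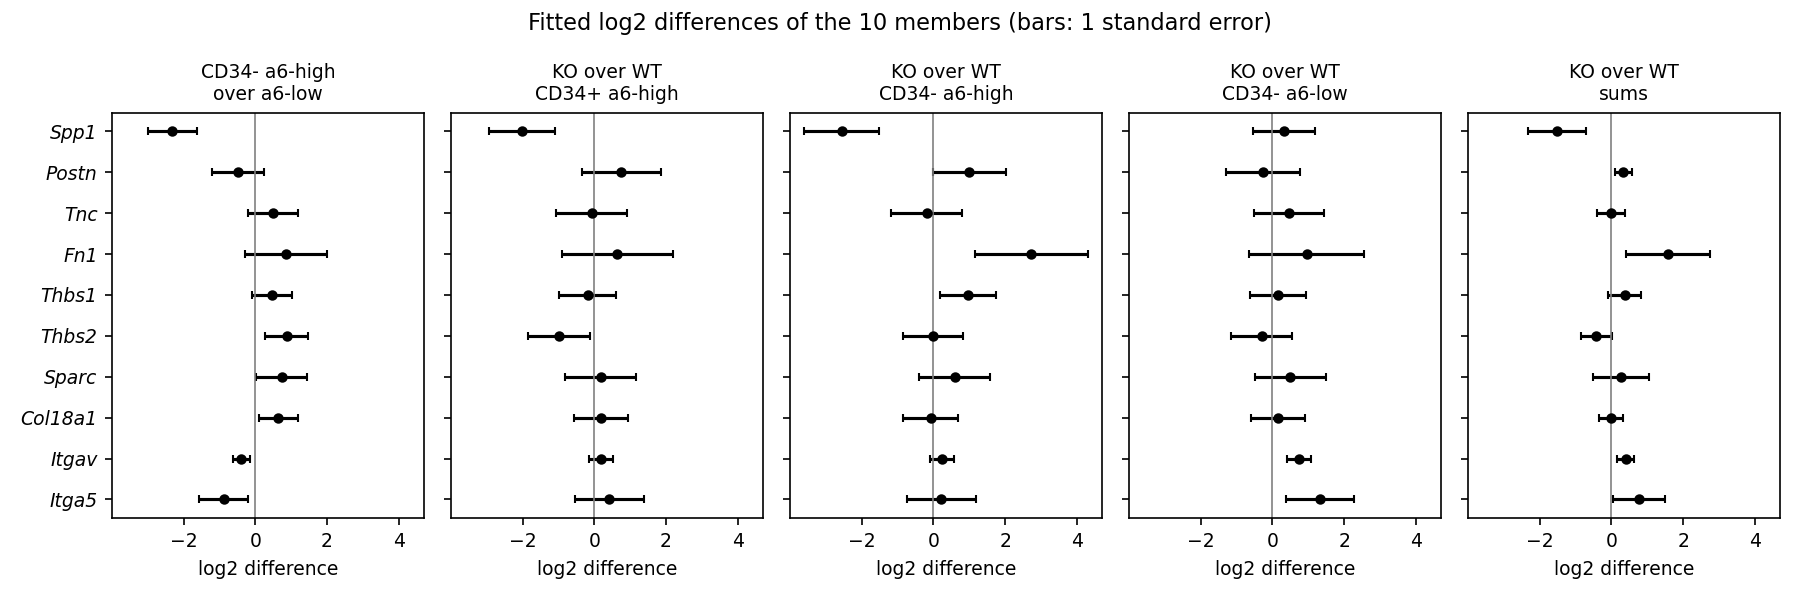
Fitted log2 differences of the 10 members (horizontal) in 5 tested comparisons, with bars of 1 standard error: CD34- a6-high over a6-low, and KO over WT in each population and in the sums per replicate. No member passes the threshold in any panel; Spp1 is the one to the left of 0 by 1.5 or more in 4 of the 5.

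Loss of SIRT6 in the keratinocyte lineage is the genotype the study varied, and no member passed between KO and WT in any population. In each of the 3 populations 0 of 10 members passed with edgeR, and 0 with DESeq2, where edgeR called 0.00683% of genes (1 gene); 1 member in each had an unadjusted p under 0.05, against 7.59% of genes in CD34+, 9.59% in CD34- a6-high and 4.69% in a6-low cells. That member was Spp1 in the a6-high populations and Itgav in a6-low cells. On simulated data of the same size, 36% to 50% of 4-fold changes and 1% of 2-fold changes were called in these comparisons, so a change of 2-fold would mostly be missed.

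Spp1 was 4.02-fold lower in KO than in WT CD34+ cells (14.7 ± 8.62 against 59.4 ± 62.8 CPM, SD, n = 2 and 3; log2 difference -2.01 ± 0.92 SE, edgeR adjusted p = 0.652). Without WT replicate 3 the difference was -0.66. It was 5.87-fold lower in CD34- a6-high cells (0.592 ± 0.342 against 3.59 ± 3.12 CPM; -2.55 ± 1.05, adjusted p = 0.510), where both KO libraries were below all 3 WT libraries, as 30.2% of genes were separated there. In a6-low cells it differed by 0.32 ± 0.87 (8.17 ± 4.34 against 6.51 ± 2.69 CPM; adjusted p = 0.955). The difference in its a6 contrast between KO and WT was -2.88 ± 1.34 and that in its CD34 contrast 0.55 ± 1.29 (edgeR adjusted p = 1 for both). Without a filter on low counts the KO against WT difference of Spp1 passed in CD34+ (edgeR adjusted p = 0.0205) and in CD34- a6-high cells (0.00403). That setting called far more genes in all than the main fit did, as the closing section gives, so the call is not particular to Spp1. Cell type markers were read beside it. Of the 9 endothelial markers tested, 8 were lower in KO in CD34+, 7 in CD34- a6-high and 8 in a6-low cells (median log2 differences -0.94, -0.95 and -0.86), and 9 of 9 in the sums (-1.21). Of the 11 macrophage markers, 10 were higher in KO in CD34+, 10 in CD34- a6-high and 8 in a6-low cells (3.76, 2.09 and 0.83), and 12 of 13 in the sums (1.60). Most were near the floor: 12 of the 15 listed stayed under 3 CPM in every CD34+ library. The 15 together summed to 31.8 and 40.2 CPM in KO and 22.2 to 29.4 CPM in WT CD34+ cells. With edgeR 0 of these markers passed. Under an unadjusted p of 0.05 were 6, 5 and 1 macrophage and 0, 2 and 0 endothelial markers in that order of populations. In the sums 4 and 3 were. Of all genes, 7.59%, 9.59% and 4.69% were under that p in the same order, and 10.6% in the sums. DESeq2 called 3 macrophage markers in CD34+, 1 in CD34- a6-high and 0 in a6-low cells, 1 in the sums, and 0 endothelial ones. The 5 tested melanocyte and Schwann cell markers were higher in KO in CD34- a6-high and a6-low cells (medians 2.11 and 3.41). So they were in the sums (1.99), while 4 of 5 were lower in CD34+ cells (-0.40). An unadjusted p under 0.05 was reached by 0, 1 and 5 of them in the same order of populations and by 2 in the sums. With edgeR and DESeq2 0 passed. The 8 listed summed to 4.19 and 135 CPM in KO and 1.22 to 2.55 CPM in WT a6-low cells. The part of all these markers in the Spp1 differences was not tested.

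Postn differed between KO and WT by 0.75 ± 1.1 SE on the log2 scale in CD34+ cells (edgeR adjusted p = 0.850), by 1.0 ± 1.0 in CD34- a6-high cells (0.734) and by -0.26 ± 1.0 in a6-low cells (0.974). In a6-low cells both KO libraries (215 and 227 CPM) were below the 3 WT libraries (238 to 285 CPM), as in 14.9% of genes. In CD34+ cells the direction rests on KO replicate 2, without which the difference was -1.49. Thbs2 was the single member without overlap in CD34+ cells, at 13.6 and 11.5 CPM in KO and 13.9 to 38.7 CPM in WT, as in 28.1% of genes (-0.99 ± 0.87, adjusted p = 0.742). Fn1 was 2.74 ± 1.56 higher in KO CD34- a6-high cells (adjusted p = 0.558), which rests on KO replicate 2: without it the difference was -1.81. Itgav and Itga5 in a6-low cells were 0.74 ± 0.34 and 1.33 ± 0.95 higher in KO (adjusted p = 0.865 for both), and without KO replicate 2 these were -0.01 and -1.67.

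Counts summed over the 3 populations of each replicate gave 2 KO and 3 WT profiles. With edgeR 0 of 10 members passed (0 at an unadjusted p under 0.05, 0 by DESeq2), where edgeR called 0.00641% of 15597 genes (1 gene) and 10.6% had an unadjusted p under 0.05. Spp1 was at -1.53 ± 0.81 (adjusted p = 0.510), Postn at 0.33 ± 0.24 (0.603), Fn1 at 1.57 ± 1.17 (0.617), Itgav at 0.40 ± 0.24 (0.555) and Itga5 at 0.76 ± 0.72 (0.690). Without WT replicate 3 the Spp1 value was -0.49, and without KO replicate 2 Fn1 and Itga5 turned to -1.17 and -1.04. The tests of whether a population difference depends on genotype called 0 of 10 members for CD34 and for a6 alike, 0 by DESeq2, where edgeR called 0 of 14652 genes (0%). An unadjusted p under 0.05 was reached by 0 members, against 1.09% of genes for CD34 and 1.15% for a6.

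Other genes of the same system, in lists chosen with earlier results known, passed in few cases. In CD34+ against CD34- a6-high cells, where edgeR called 1.17% of genes, 0 of the 10 tested further matricellular genes passed (24 listed; 2 at an unadjusted p under 0.05, against 15.1% of all genes, and 1 by DESeq2), the most abundant being Ccn1 (462 ± 206 CPM over 15 libraries) and Tgfbi (247 ± 114 CPM). Of 15 tested receptor and coreceptor genes 0 passed (4 at an unadjusted p under 0.05, 0 by DESeq2); Sdc1, a matrix-binding syndecan, was at 1671 ± 350 CPM and Itgb1 at 401 ± 192 CPM. Among 13 adhesion signalling genes Ptk2, the focal adhesion kinase gene, rose 2.62-fold (55.2 to 181 CPM in CD34+, 30.0 to 66.2 CPM in CD34- a6-high cells; log2 difference 1.39 ± 0.25 SE, edgeR adjusted p = 0.0209). Among 9 basement membrane partners of Col18a1, Col4a2 rose (0.655 to 6.07 against 0 to 0.360 CPM; 4.44 ± 0.79, adjusted p = 0.0190), and the list's median was 1.46 against -0.02 over all genes, with 3 of the 9 called by DESeq2 and 5 under an unadjusted p of 0.05. The endothelial markers given above beside Spp1 were higher in the same cells (9 of 9 tested, median 1.74), and their part in these levels was not tested. Of 9 matrix crosslinking and assembly genes 0 passed (0 unadjusted, 0 by DESeq2), Bmp1 (64.4 ± 27.5 CPM) and Serpinh1 (61.0 ± 24.4 CPM) being the most abundant. Cd68 was the single marker of another cell type that passed with edgeR (1.14 ± 0.21, adjusted p = 0.0254). Each of the 3 calls was lost on leaving out single libraries: Col4a2 without KO replicate 1 of either a6-high population or KO replicate 2 of the CD34- cells, Ptk2 without any 1 of 6 of the 10 libraries and Cd68 without any 1 of 7.

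In CD34+ against a6-low cells 4 of the 56 tested genes of these lists passed with edgeR, beside 4.93% of all genes. Ptk2 was again higher (3.84-fold; log2 difference 1.94 ± 0.26 SE, adjusted p = 0.00691), and it kept its call on leaving out any of the 10 libraries. Parva, which encodes the integrin-linked adaptor parvin alpha, was at 76.6 to 113 CPM in CD34+ and 21.7 to 71.5 CPM in a6-low cells (1.16 ± 0.25, adjusted p = 0.0234), without overlap. Ecm1, the gene of extracellular matrix protein 1, was at 60.8 to 250 CPM against 33.1 to 95.9 CPM (1.43 ± 0.34, adjusted p = 0.0360). Itgb8, a beta chain that pairs with the alpha v chain of Itgav, was lower in CD34+ cells, at 1.48 to 4.29 CPM against 6.11 to 19.3 CPM (-1.52 ± 0.38, adjusted p = 0.0392). Parva lost its call without any 1 of 3 libraries, Ecm1 without any 1 of 7 and Itgb8 without any 1 of 8. In CD34- a6-high against a6-low cells 0 of the 56 genes passed with edgeR (14 at an unadjusted p under 0.05, against 11.1% of all genes, and 3 by DESeq2). For KO against WT 0 passed with edgeR in CD34+ (5 unadjusted, 0 by DESeq2), CD34- a6-high (3 and 1) and a6-low cells (0 and 0), beside the 7.59%, 9.59% and 4.69% of all genes at an unadjusted p under 0.05. In the sums 0 of 58 passed (3 unadjusted, against 10.6% of all genes, and 2 by DESeq2).

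Of 9281 genes compared over the 15 libraries by Pearson's r of log2(CPM + 1), the pattern most like that of Spp1 belonged to Elovl1 (r = 0.894), Lypd3 (0.885), Sigirr (0.883), Vamp5 (0.882) and Prss27 (0.879). Lypd3, which encodes a GPI-anchored protein of differentiating and transformed keratinocytes, was at 1789 to 5266 CPM in CD34+ cells and 853 to 2602 CPM in CD34- a6-high cells. Most like Postn were Hpgd (0.929), Scpep1 (0.915), Prkaa2 (0.906), Sh3bp2 (0.906) and Gpcpd1 (0.897). Hpgd, which encodes the enzyme that inactivates prostaglandin E2, was at 0 to 1.14 CPM in CD34+ cells, 5.91 to 32.8 CPM in CD34- a6-high cells and 13.3 to 32.9 CPM in a6-low cells.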

How the data were processed

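Sequencing libraries were made from RNA of the sorted cells with a low-input SMART-Seq kit, which keeps no strand, per the labels' protocols. The authors deposited integer read counts for each Ensembl gene, not normalized. The submitters' processing notes name STAR (2.3.0), Picard (1.100), HTSeq (0.6.0) and mm9, without saying what each was used for. Multi-mapped records, 29.86% to 38.04% of records, and the 4 other closing lines without a gene entered neither library totals nor fits. Reads of genes that overlap on opposite strands cannot be told apart.

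Members and gene lists were chosen with earlier results of these data known. All 15 libraries were fitted together with edgeR 4.0.16 in R 4.3.3: TMM scaling, filterByExpr (14652 genes kept, all 10 members among them), a coefficient per group, quasi-likelihood tests and Benjamini-Hochberg adjustment over all genes at 0.05. Counts summed over populations per replicate number were fitted separately. The CD34 comparisons chose the members, so no p is given for them there. Named genes are all members; from each list those past the threshold (up to 4) or otherwise the 2 with the highest mean level; and the 5 genes most like Spp1 and Postn. Whether libraries of a group come from separate animals is not labelled, so the spread behind each p-value may be technical in part. The 2 KO replicates differ in the Y-linked gene Ddx3y, so they are not repeats of 1 sample. For the WT replicates the labels do not say. Same-numbered CD34+ and CD34- a6-high libraries of a genotype had correlated deviations from their group means (r = 0.136 to 0.473, over 0.1 in 5 of 5 pairs), as had CD34- a6-high and a6-low ones (0.035 to 0.465, over 0.1 in 4 of 5); with 2 KO libraries a group, both KO pairs give 1 and the same r. Between KO and WT libraries of a number r was -0.396 to 0.061. Alternatives were DESeq2 1.42.0, its size factors within edgeR, no filter, at least 10 CPM in 2 libraries, fits of the compared groups alone, a replicate block, leaving out each library, and 2 settings added after the data were seen. The code was tested on simulated counts with 200 changed genes; the a6 comparison recovered 80% of 4-fold and 26% of 2-fold changes.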

Additional observations from a re-analysis of the deposited data

How the results depend on the processing

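The size factors of DESeq2 within edgeR changed no call of a member; the effect of depth itself was not tested. In the a6 comparison DESeq2 called 1 member and 243 genes, no filter 1 and 602, and the set without the 2 a6-low libraries of high Itga6 3 and 342; 10 CPM in 2 libraries gave 3 genes, the compared groups alone 0 and leaving out KO replicate 2 throughout 0, against 1. With the replicate block, 60 genes passed there, 793 in the CD34 comparison, 2 in each KO comparison within a population and 0 in the sums; it changed no call of a member. In the CD34 comparison 171 genes passed, against 853 by DESeq2, 1242 unfiltered, 311 in the compared groups alone, 32 without KO replicate 2 and 7 (without CD34- a6-high KO replicate 1) to 258 (without CD34+ WT replicate 2) on leaving out 1 library; only leaving out CD34- a6-high WT replicate 3 kept it within 1.5 times. In KO against WT (1 gene each) DESeq2 called 27, 38 and 6 genes in CD34+, CD34- a6-high and a6-low cells and 143 in the sums; without the filter these were 195, 256, 156 and 6, with 1 member (Spp1) in each a6-high population. The compared groups alone gave 2 in CD34+ and 0 in a6-low cells; without KO replicate 2 there were 4 in CD34- a6-high and 6 in a6-low cells. For the genotype dependence of the CD34 difference DESeq2 called 1 gene, and no filter gave 20 there and 13 for a6. Leaving out 1 library gave 1 to 50 genes for a6 (50 without a6-low KO replicate 2; 2 without a6-low KO replicate 1, a6-low WT replicate 1 or CD34- a6-high WT replicate 2), 1 to 2 in CD34+ (2 without WT replicate 1) and CD34- a6-high cells (2 without KO replicate 1), and 0 to 10 in the sums (9 and 10 without KO replicate 1 or 2, 0 without any WT replicate).

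Without KO replicate 2 these log2 differences changed sign: Fn1 (-0.97), Itgav (0.046) and Itga5 (0.39) for a6; Postn in CD34+ (-1.50), Fn1 in CD34- a6-high (-1.81), and Itgav (-0.011) and Itga5 (-1.67) in a6-low cells for KO against WT. Without the 2 a6-low libraries Itgav (0.088) and Itga5 (1.14) did so for a6 and Itga5 (-0.61) for KO against WT. Leaving out 1 library at a time turned the sign of some values that had not passed. For a6 the ranges were -0.0022 to 2.49 for Tnc, -1.42 to 1.35 for Fn1, -0.077 to 0.83 for Thbs1 and -1.34 to 0.62 for Itga5. For KO against WT they were -1.49 to 2.23 for Postn in CD34+, -1.81 to 3.71 for Fn1 in CD34- a6-high, and -0.35 to 0.78 for Spp1, -0.011 to 1.24 for Itgav and -1.67 to 2.38 for Itga5 in a6-low cells. In the sums they were -1.17 to 2.66 for Fn1 and -1.04 to 1.54 for Itga5, and for the genotype dependence of the CD34 difference -0.40 to 1.90 for Spp1 and -2.50 to 1.22 for Postn. Of the listed genes other than members, 9 passed in CD34+ against a6-low cells, with 2 to 21 on leaving out 1 library (2 without KO replicate 1 or 2 of CD34+), 2 in the compared groups alone, 19 by DESeq2, 35 unfiltered and 23 with the replicate block. The cause was not tested.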
